A study of Mus musculus with 6 samples.

Results

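The angiopoietin and TIE receptor system was followed through 3 subsets of thymic endothelial cells (ECs). It was represented by 6 genes chosen by name, Tek, Tie1, Angpt1, Angpt2, Ptprb and Foxo1, out of 24457 genes listed on chromosomes. All 6 passed the filter on low values (1 FPKM or more in 2 or more libraries), which kept 11717 genes for testing. FPKM relates the fragments of a gene to its transcript length and to the sequencing depth, so levels of different genes are compared per length below.

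The cells came from the thymus of female wildtype C57BL/6 mice aged 4 to 6 weeks, with no treatment, and were sorted as CD31+CD45-EpCAM- cells to a purity of at least 90%. Type I ECs were Ly6c+ Selp-, type II ECs were Ly6c+ Selp+ and type III ECs were Ly6c- Selp+, the subset that the study named thymic portal ECs. RNA of each subset was sequenced in 2 libraries, 6 in all. The labels do not say whether the 2 libraries of a subset came from separate mice, so the p-values below measure only the spread between these libraries, which may be technical.

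Angiopoietins are secreted proteins that bind TIE2, the receptor tyrosine kinase encoded by Tek. Angiopoietin-1, made mainly by the perivascular cells around a vessel, activates TIE2 and keeps endothelium quiet and tight, whereas angiopoietin-2, made and stored by ECs themselves, acts on the same receptor as a weak or opposing ligand depending on the context. TIE1 is a related receptor that modulates TIE2, VE-PTP (encoded by Ptprb) is a phosphatase that removes phosphate from TIE2, and FOXO1 is a transcription factor that is held out of the nucleus by AKT downstream of TIE2 and that is known to drive Angpt2. Venous and activated endothelium is a known site of angiopoietin-2 and P-selectin.

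All members are protein-coding genes in GENCODE mouse release 1, which is on the assembly of the files, mm9. Tek lies at chr4:94405980-94541667 on the plus strand and Tie1 on the same chromosome, at chr4:118143796-118162454 on the minus strand. Angpt1 lies at chr15:42256213-42508523 (minus), Angpt2 at chr8:18690263-18741562 (minus), Ptprb at chr10:115738430-115826594 (plus) and Foxo1 at chr3:52072259-52154031 (plus). Angpt2 sits inside the span of Mcph1, a gene on the opposite strand, with which it shares 0 of its 3690 exon bases. Mcph1 was listed at an FPKM between 0.570 and 1.29 in the 6 libraries, below Angpt2 in each of them. Noncoding transcripts on the opposite strand cover 283 of the 4256 exon bases of Angpt1 and 674 of the 5552 of Foxo1, and have no row of their own in the files. The library kit does not keep the strand, so reads there cannot be assigned to either transcript.

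RefSeq promoter windows (GRCm38.p6, 250 bases before to 50 after the start) were held for 3 of the 6 members, Tek, Tie1 and Foxo1. Those of the receptor pair are shown because both receptors are endothelial genes, a class whose promoters are known to be bound by ETS factors, and because the letters of the windows differ in that respect. Capitals mark the ETS core, GGAA read on either strand (TTCC on the printed strand). Both windows read 5′ to 3′ in the direction of the gene.
Tek, chr4:94739039-94739338, plus strand: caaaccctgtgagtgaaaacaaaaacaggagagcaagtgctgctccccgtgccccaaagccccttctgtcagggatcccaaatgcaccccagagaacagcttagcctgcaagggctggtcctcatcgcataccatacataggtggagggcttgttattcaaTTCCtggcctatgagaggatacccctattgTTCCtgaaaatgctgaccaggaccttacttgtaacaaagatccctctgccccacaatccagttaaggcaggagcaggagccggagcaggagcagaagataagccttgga
Tie1, chr4:118489800-118490099, minus strand: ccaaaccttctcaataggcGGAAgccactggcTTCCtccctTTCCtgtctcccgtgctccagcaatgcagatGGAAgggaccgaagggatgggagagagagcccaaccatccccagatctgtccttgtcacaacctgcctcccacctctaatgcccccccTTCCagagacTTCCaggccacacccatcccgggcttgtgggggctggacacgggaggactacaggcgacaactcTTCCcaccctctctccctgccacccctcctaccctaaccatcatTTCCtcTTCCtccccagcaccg
The Tie1 window held 9 ETS cores, and 1.59% of 32851 promoter windows held at least as many. The Tek window held 2, below the median of 3, and so did that of Foxo1. A GATA motif (AGATAA, either strand) occurred 1 time in Tek, as in 11.2% of all windows, and in neither of the other two. A forkhead motif (GTAAACA, either strand), held by 3.65% of all windows, was in none of the 3 windows. These are matches of letters and not sites at which a factor was measured.

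Estimated from the error bounds that accompany each FPKM, the libraries held between 1452480 and 2423170 fragments, and 3 fragments corresponded to a median FPKM of 0.300 to 0.521. The 9 endothelial markers were above 0 in every library, and their summed FPKM was 2548 to 2972 in type I, 2342 to 2382 in type II and 2709 to 2938 in type III ECs. Selp, used in the sort, had an FPKM of 5.20 to 7.87 in type I, 313 to 416 in type II and 526 to 657 in type III ECs, and Ly6c1 had 692 to 1010, 351 to 522 and 59.7 to 99.6. Over the tested genes, type II replicate 2 correlated more closely with type III replicate 2 (Pearson r = 0.951 across genes) than with type II replicate 1 (r = 0.946), and type III replicate 1 correlated with its own replicate at r = 0.935. Results are therefore given with each library left out where that mattered.

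The main observation was on the ligands. Angpt2 transcript was higher in type III than in type I ECs and was the only member that passed the test in any comparison. The study also lists Angpt2 among the genes that differ between type I and type III ECs. Angpt2 had an FPKM of 13.0 and 9.49 in type I, 20.9 and 18.8 in type II and 35.9 and 32.6 in type III ECs. The 3 subsets did not overlap, with type II ECs in between. The mean was 11.2 ± 2.47 (SD, n = 2) in type I, 19.8 ± 1.47 (SD, n = 2) in type II and 34.2 ± 2.35 (SD, n = 2) in type III ECs, so that type III ECs had 3.05 times the type I level. Between type III and type I ECs the difference was 1.54 on the log2(FPKM + 1) scale (SE 0.26, 95% interval 0.94 to 2.14, limma adjusted p = 0.012), larger than 96.0% of the differences of all tested genes in size. The Cufflinks 95% bounds, which cover only the error of estimating each library's FPKM, reached 15.2 at most in type I, spanned 16.3 to 24.1 in type II and began at 29.4 in type III ECs.

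In that comparison 1 of the 6 members passed an adjusted p of 0.05, against 4.14% of all tested genes (485 genes, 245 of them higher in type III ECs). With the replicate number as a block 971 genes passed, and again 1 of the 6 members, Angpt2 (limma adjusted p = 0.00214). The call held without type I replicate 1 and was lost without any other of the 4 libraries compared. The adjusted p was 0.065 without type I replicate 2 (log2 difference 1.33), 0.106 without type III replicate 1 (1.47) and 0.072 without type III replicate 2 (1.61), and testing every gene, without the filter, gave 0.094. The smaller steps of Angpt2 did not pass. Type II ECs were 0.78 above type I ECs on the log2 scale (95% interval 0.18 to 1.38, limma adjusted p = 0.44) and type III ECs were 0.76 above type II ECs (0.16 to 1.36, limma adjusted p = 0.37), although the libraries did not overlap in either. Those 2 comparisons called 0 of the 6 members, with 0.393% (46 genes) and 0.222% (26 genes) of all tested genes called. The 3 comparisons share libraries and are not independent of each other. In sorted bulk cells, more cells with the transcript and more transcript per cell cannot be told apart.

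**Figure D1:**
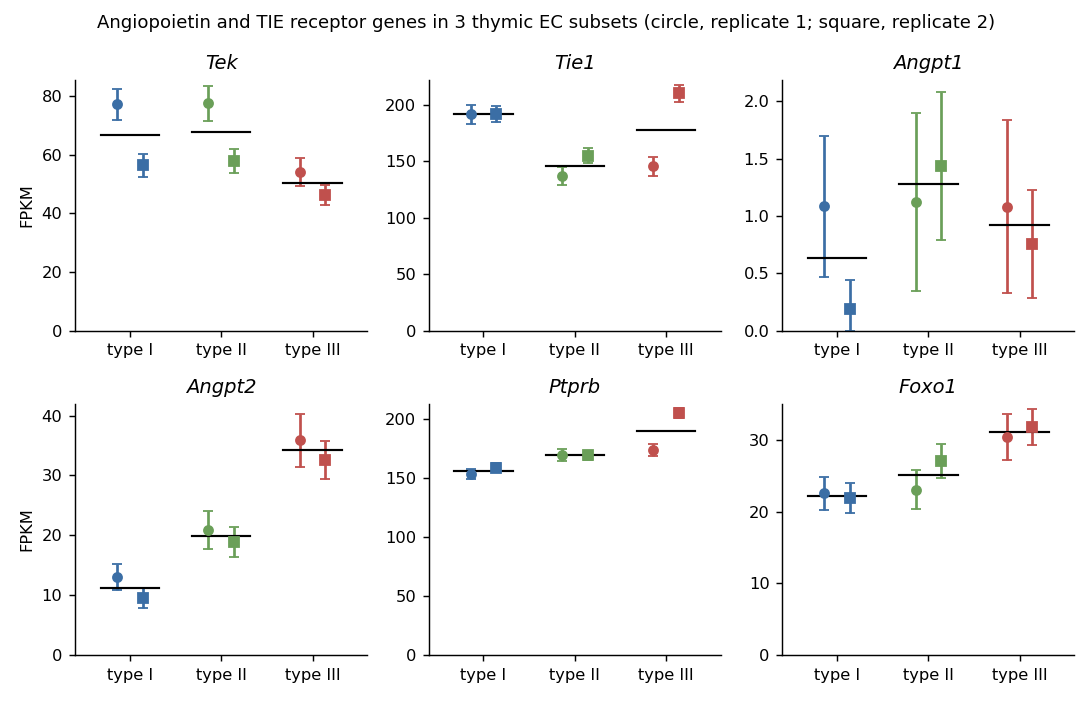
FPKM of the 6 genes in each library of type I, type II and type III ECs (circles, replicate 1; squares, replicate 2; error bars, Cufflinks 95% bounds; black lines, means of 2 libraries), each panel on its own linear axis from 0. The 3 groups do not overlap for Angpt2, at 9.49 to 13.0 in type I and 32.6 to 35.9 in type III ECs, while Tie1 and Ptprb are high in all 6 libraries and Angpt1 is at or under 1.44 in each.

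The activating ligand was near the limit of detection. Angpt1 had an FPKM of 1.08 and 0.186 in type I, 1.12 and 1.44 in type II and 1.08 and 0.755 in type III ECs. These values rested on an estimated 2 to 20 fragments a library, and 3 fragments corresponded to an FPKM of 0.22 to 0.40 for this gene. The low library was type I replicate 2, whose lower bound was 0 and whose value was under that of 3 fragments. Type III and type I ECs overlapped, and the difference was 0.28 on the log2 scale (95% interval -0.67 to 1.23, limma adjusted p = 0.86), a range too wide at this depth to show whether the subsets differ. Among the tested genes Angpt1 stood at the 1.93 to 16.3 percentile of each library. Per length, the Angpt2 mean was above the Angpt1 mean in each subset, and every library had more Angpt2 than any library had Angpt1.

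Markers of mural cells and fibroblasts, which are known to make Angpt1, were present in every library. The 10 mural cell markers summed to an FPKM of 271 to 630 in type I, 476 to 625 in type II and 184 to 264 in type III ECs, and the 6 fibroblast markers to 161 to 263, 261 to 427 and 165 to 168. Of the 10 mural markers, 5 passed the test between type III and type I ECs, beside 4.14% of all tested genes. Pdgfrb, Notch3, Kcnj8 and Abcc9, genes of pericytes, fell, with log2 differences of -1.85, -1.73, -3.69 and -2.38 (limma adjusted p = 0.0132, 0.021, 0.0137 and 0.0142), and Tagln, a gene of smooth muscle, rose by 1.60 (adjusted p = 0.0106). The 4 falls lost their calls without type I replicate 1 (adjusted p 0.073 to 0.110) and without type III replicate 1 (0.082 to 0.149), Notch3 also without type I replicate 2 (0.056) and Abcc9 without type III replicate 2 (0.066), and Tagln without type I replicate 2 (0.054) or type III replicate 2 (0.096). Tagln was also higher in type II than in type I ECs, by 2.11 (adjusted p = 0.014), with adjusted p-values of 0.056 to 0.162 without type I replicate 2 or either type II library. None of the 6 fibroblast markers passed in any comparison, and neither Rgs5, the mural marker with the highest mean, nor Col3a1 and Dcn did. Of the mural sums, 630 and 271 belonged to replicates 1 and 2 of type I ECs. Those of type II ECs were 625 and 476 and those of type III ECs 184 and 264. The sums hide a split between markers. Named after their values were seen, Acta2 and Myh11 were lowest in type I ECs, as Tagln was. Means in type I, II and III ECs were 10.6, 33.2 and 25.4 for Acta2 and 13.5, 33.8 and 23.9 for Myh11. The means of the other mural markers were lower in type III than in type I ECs. The part of these cells in the levels of Angpt1 and Angpt2 was not tested.

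The receptors were abundant, and neither passed the test. Tek had an FPKM of 77.3 and 56.5 in type I, 77.6 and 57.9 in type II and 54.3 and 46.3 in type III ECs. Both type III libraries lay under every other library, while type I and type II ECs overlapped almost fully. The mean was 66.9 ± 14.7 (SD, n = 2), 67.7 ± 13.9 (SD, n = 2) and 50.3 ± 5.65 (SD, n = 2). The difference of type III from type I ECs was -0.39 on the log2 scale (95% interval -0.998 to 0.21, limma adjusted p = 0.63) and from type II ECs -0.41 (-1.02 to 0.19, adjusted p = 0.68). In each subset replicate 1 was the higher library, and the gap between the replicates of type I ECs, 77.3 against 56.5, was wider than that between the means of type I and type III ECs.

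Tie1 was among the most abundant transcripts, at or above 97.5% of the tested genes in each library. Its FPKM was 191 and 192 in type I, 137 and 155 in type II and 145 and 210 in type III ECs. Type I ECs lay above type II ECs without overlap, and the libraries of type III ECs lay on either side of the type I values. The differences were -0.39 for type II against type I ECs (95% interval -0.95 to 0.17, limma adjusted p = 0.85), -0.13 for type III against type I ECs (-0.70 to 0.43, adjusted p = 0.90) and 0.26 for type III against type II ECs (-0.30 to 0.82, adjusted p = 0.81). The sign of the second changed to 0.13 without type III replicate 1.

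Ptprb and Foxo1, the phosphatase that acts on the receptor and the factor below it, were also measured in every library. Ptprb had an FPKM of 154 and 159 in type I, 170 and 170 in type II and 174 and 206 in type III ECs. The subsets followed each other without overlap, but the steps were small, with 0.27 on the log2 scale between type III and type I ECs (95% interval -0.22 to 0.77, limma adjusted p = 0.70). The step between type III and type II ECs, 0.16 (adjusted p = 0.87), was close to the median of all tested genes in that comparison, 0.14, and became -0.035 after quantile normalization. Foxo1 had an FPKM of 22.5 and 21.9 in type I, 23.0 and 27.1 in type II and 30.5 and 31.8 in type III ECs. Both type III libraries were above all others, with a difference from type I ECs of 0.47 (95% interval -0.08 to 1.01, limma adjusted p = 0.46). A difference that misses the threshold is not shown to be 0, and the intervals of Tek, Ptprb and Foxo1 reach -0.998, 0.77 and 1.01 at their far ends.

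Lack of overlap between 2 libraries and 2 others was common among all genes. It held for 4 of the 6 members between type III and type I ECs (Tek, Angpt2, Ptprb and Foxo1) and for 37.9% of all tested genes. Between type II and type I ECs it held for 5 members (all but Tek, 4 of them higher) against 33.6% of all tested genes. Between type III and type II ECs it held for 5 members (all but Tie1, 3 of them higher) against 41% of them. Both counts of 5 include Angpt1, which was near the limit of detection. The median log2 difference of the 6 members was 0.28, 0.14 and 0.21 in the 3 comparisons, beside 0.08, -0.06 and 0.14 over all tested genes. The smallest p that exact permutation allows for 2 libraries against 2 is 0.333.

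**Figure D2:**
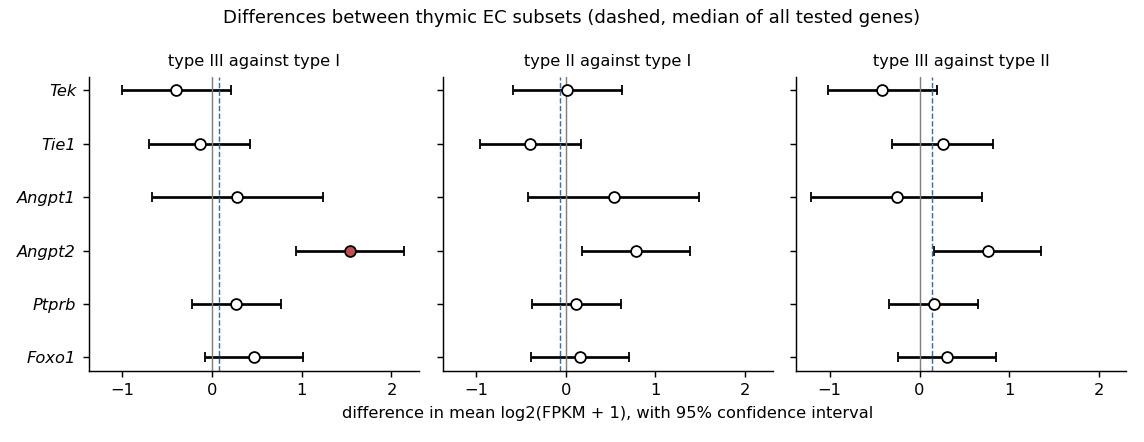
Differences in mean log2(FPKM + 1) of the 6 genes in the 3 comparisons of EC subsets, with 95% confidence intervals from limma (filled point, adjusted p under 0.05; grey line, 0; dashed line, median of all tested genes). Only Angpt2 in type III against type I ECs is filled, at 1.54, and the intervals of the other 5 genes in that panel include 0.

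The order of the members per length changed between the subsets. In type I ECs the means ran from Tie1 (192 ± 0.44) through Ptprb (156 ± 3.66), Tek (66.9), Foxo1 (22.2 ± 0.47) and Angpt2 (11.2) to Angpt1 (0.63 ± 0.63; SD, n = 2), and no neighbours overlapped. In type II ECs Ptprb (170 ± 0.04) stood above Tie1 (146 ± 12.6; SD, n = 2), and Foxo1 (25.0 ± 2.84) above Angpt2, the latter with bounds that overlapped in replicate 1. In type III ECs Ptprb (190 ± 22.4) and Tie1 (178 ± 45.6; SD, n = 2) overlapped and cannot be ordered, and neither can Angpt2 and Foxo1, whose Cufflinks 95% bounds overlapped in both libraries (31.5 to 40.3 against 27.3 to 33.7 in replicate 1, 29.4 to 35.7 against 29.3 to 34.3 in replicate 2).

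Ratios of FPKM within a library, given in percent, do not depend on how libraries are scaled to each other. The log2 ratios were taken on FPKM + 1 and do depend on it to some degree. Angpt2 amounted to 16.8% of Tek in both type I libraries, to 26.9% and 32.5% in type II and to 66.2% and 70.4% in type III ECs. The ligand that ECs make thus stood at a higher level beside its receptor in each step, and no 2 subsets overlapped. The mean log2 ratio was 1.93 higher in type III than in type I ECs, 0.76 higher in type II than in type I and 1.17 higher in type III than in type II ECs (two-sided exact permutation p = 0.333 for each, the smallest that 2 libraries against 2 can give). The first of these lay between 1.89 and 1.98 with any library of the 2 subsets left out, and was 2.01 with a pseudocount of 0.1.

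The other ratios were less even. Tie1 per Tek was 247% and 339% in type I, 177% and 267% in type II and 268% and 454% in type III ECs. The replicates of each subset were far apart, with replicate 2 the higher, and type III and type I ECs overlapped, with a log2 difference of 0.26 (exact permutation p = 0.667) that became -0.12 without type III replicate 2. Ptprb per Tek was 199% and 281% in type I, 219% and 293% in type II and 321% and 445% in type III ECs, and type III ECs lay above both other subsets. Angpt2 per Foxo1 was 57.6% and 43.4% in type I, 90.6% and 69.5% in type II and 118% and 102% in type III ECs, close to equal in replicate 2 of type III ECs. The log2 difference between type III and type I ECs was 0.67 for Ptprb per Tek and 1.07 for Angpt2 per Foxo1 (exact permutation p = 0.333 for each).

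**Figure D3:**
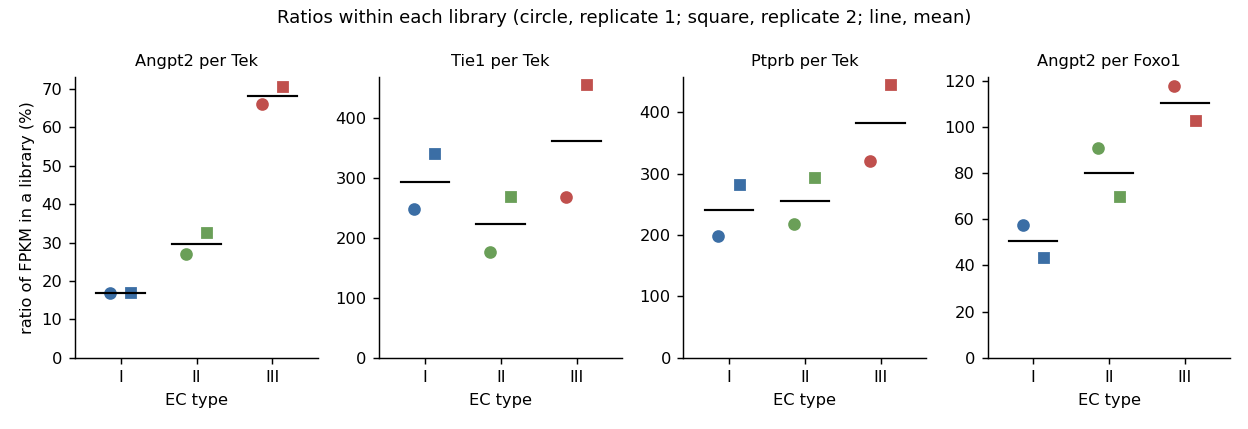
Ratio of the FPKM of 2 genes within each library, in percent on linear axes from 0, for Angpt2 per Tek, Tie1 per Tek, Ptprb per Tek and Angpt2 per Foxo1 (circles, replicate 1; squares, replicate 2; lines, means of 2 libraries). Angpt2 per Tek is 16.8% in both type I libraries and 66.2% and 70.4% in type III, and Tie1 per Tek overlaps between type I and type III ECs.

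Other ligands were low. Angpt4, the remaining angiopoietin, was listed at 0 in all 6 libraries (named here after its values were seen), and Lect2, a ligand of TIE1, was above 0 in 1 library, at 0.379. Svep1, an extracellular protein that binds TIE1, had an FPKM of 0.574 to 2.42, with the higher values in type II ECs, and did not pass (adjusted p = 0.68 for type II against type I ECs). Of the 6 angiopoietin-like genes on the list, whose proteins do not bind TIE2, 4 were tested and none passed in any comparison. Angptl2 had an FPKM of 27.8 and 12.5 in type I ECs and of 6.45 and 5.58 in type III ECs (log2 difference -1.49, limma adjusted p = 0.0593), and Angptl4, a regulator of lipoprotein lipase, had 5.99 and 12.8 against 1.31 and 3.65 (-1.58, adjusted p = 0.112). Both are among the genes that the study lists as differing between type I and type III ECs. The 5 integrin subunits that can bind angiopoietins were all tested and none passed. Itgb1 ranged from 89.7 to 186 and Itga5 from 36.2 to 54.4 over the 6 libraries.

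No tested gene of the signalling chain below TIE2 passed. Of 16 genes for its adaptors and the AKT arm, 14 were tested and 0 passed in each of the 3 comparisons, with a median log2 difference of 0.07 between type III and type I ECs beside 0.08 over all tested genes. Akt1, the kinase that phosphorylates FOXO1, had an FPKM of 55.3 to 65.7 in the 6 libraries, and Grb2, an adaptor of the receptor, had 25.0 to 53.6. Among the 14 tested, Pik3cb fell and Shc1 rose the most from type I to type III ECs, picked after their values were seen. Pik3cb had 6.43 and 4.99 in type I, 3.61 and 3.81 in type II and 2.39 and 2.45 in type III ECs. Its log2 difference between type III and type I ECs was -0.97 (limma adjusted p = 0.164), and that of Shc1 was 0.50 (adjusted p = 0.45). The related factors Foxo3 (7.20 to 11.4) and Foxo4 (5.11 to 15.4) did not pass either. Of 7 known regulators of Tek and Angpt2 transcription, none passed. Epas1, a hypoxia-inducible factor, was at 236 to 343 and Ets1 at 75.4 to 124. Named after their values were seen, Hif1a rose and Gata2 fell the most of the list from type I to type III ECs, without overlap. Hif1a had 40.1 and 28.4 in type I and 87.7 and 56.7 in type III ECs (log2 difference 1.04, limma adjusted p = 0.109). Gata2 had 16.1 and 14.5 against 5.12 and 9.69 (-1.01, adjusted p = 0.196). The list median was -0.19. The study lists Pik3cb, Hif1a and Gata2 as differing between type I and type III ECs. Simulated differences of 1 were mostly missed, so none of these genes is shown to be unchanged.

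Of 12 genes that FOXO factors are known to control, 11 were tested. Insr alone passed, between type III and type I ECs, where 4.14% of all tested genes did. Insr, the insulin receptor, had an FPKM of 9.17 and 9.38 in type I, 14.1 and 18.4 in type II and 27.0 and 33.6 in type III ECs. The subsets did not overlap, in the order seen for Angpt2, and type III ECs exceeded type I ECs by 1.60 on the log2 scale (SE 0.27, limma adjusted p = 0.0112). As with Angpt2, this call was lost without type I replicate 2 or either type III library, with adjusted p-values of 0.053 to 0.096. The most abundant genes of the list went without a call. Klf2, a flow-responsive factor, had an FPKM of 119 to 198 and Txnip, an inhibitor of thioredoxin, had 123 and 81.3 in type I ECs and 51.9 and 45.5 in type III ECs (log2 difference -1.02, adjusted p = 0.0739). Named after their values were seen, Sesn3 and Irs2 went in opposite directions. Sesn3 had 4.56 and 2.61 in type I and 10.3 and 10.7 in type III ECs (1.36, adjusted p = 0.0511). Irs2 had 12.8 and 8.37 against 5.48 and 5.16 (-0.85, adjusted p = 0.251). The study lists Insr, Sesn3, Irs2 and Txnip as differing between type I and type III ECs. The median over the 11 genes was 0.04.

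Among 6 genes for partners of VE-PTP and other receptor phosphatases of ECs, 1 passed between type III and type I ECs, beside 4.14% of all tested genes. Ptprg, a receptor phosphatase, had an FPKM of 36.1 and 34.6 in type I, 24.6 and 20.0 in type II and 12.3 and 9.84 in type III ECs. Here type I ECs were high and type III ECs low, and the level fell by 1.60 on the log2 scale (SE 0.26, limma adjusted p = 0.00916), although without type III replicate 2 the adjusted p was 0.082. Cdh5, which encodes VE-cadherin, the junction protein that VE-PTP binds, had 632 and 595 in type I ECs and 414 and 486 in type III ECs (-0.45, adjusted p = 0.43). Ptprm had 62.2 and 68.5 against 33.0 and 47.2 (-0.71, adjusted p = 0.22).

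Angiopoietin-2 is stored in Weibel-Palade bodies, the secretory granules of ECs, together with von Willebrand factor and P-selectin. Of 11 genes for cargo and machinery of these granules, 5 passed between type III and type I ECs, 4 higher and 1 lower. Of all tested genes 4.14% passed. The median of the list was 1.02 beside 0.08 over all tested genes. Selp, a gene of the sort, is 1 of the 4 and also enters the median. Vwf, the main cargo, had an FPKM of 14.9 and 18.5 in type I, 163 and 259 in type II and 669 and 1095 in type III ECs, and rose by 5.60 on the log2 scale (SE 0.32, limma adjusted p = 3.79e-05). Selp rose by 6.31, but its protein was used in the sort, so its direction was set by the design. Myrip, which links the granules to actin, rose by 2.17 (from 1.98 ± 0.264 to 12.4 ± 1.33, SD, n = 2; adjusted p = 0.00378). Edn1, the vasoconstrictor endothelin-1, rose by 1.74 (from 7.23 ± 1.40 to 26.4 ± 3.48, SD, n = 2; adjusted p = 0.00873), a call lost without type III replicate 2 (adjusted p = 0.079).

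Igfbp7, a secreted binding protein that is also found in the granules, went the other way. Its FPKM was 3422 and 3403 in type I, 1875 and 1807 in type II and 850 and 1026 in type III ECs, and it fell by 1.87 (adjusted p = 0.00255). The 6 remaining genes of the list did not pass. Between type II and type I ECs 2 of the 11 passed, beside 0.393% of all tested genes. They were Vwf (3.55 higher, limma adjusted p = 0.0019) and Selp, whose direction was again set by the sort. Between type III and type II ECs none did. The granule list and Angpt2 were measured in the same libraries, so their agreement in direction is a description.

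Angpt2 is also known as a gene of tip cells, the leading cells of sprouting capillaries, and the list was followed for that reason. The list was chosen with earlier results of these data known. Of the 8 tip cell genes, 5 passed between type III and type I ECs, all of them lower. Of all tested genes 4.14% passed, 240 of them lower. The median of the list was -1.94 beside 0.08 over all tested genes. Pgf, Cxcr4 and Kcne3 did not pass, and type I and type III ECs overlapped in Cxcr4 (13.8 and 8.08 against 9.14 and 6.58). Esm1, a proteoglycan of tip cells, had an FPKM of 40.5 and 31.3 in type I, 15.5 and 5.38 in type II and 3.05 and 0.272 in type III ECs (log2 difference -4.01, SE 0.58, limma adjusted p = 0.00551). Dll4, a Notch ligand, had 49.8 and 53.6 in type I, 22.0 and 22.4 in type II and 18.6 and 18.9 in type III ECs (-1.41, SE 0.23, adjusted p = 0.0101). In both genes every type I library lay above every library of the other subsets.

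Apln, the peptide apelin, Nid2, a basement membrane protein, and Unc5b, a guidance receptor, also fell, with log2 differences of -2.65, -2.22 and -2.89 (limma adjusted p = 0.00143, 0.00198 and 0.00477). Dll4 lost its call without type I replicate 2 or either type III library (adjusted p 0.054 to 0.086) and Unc5b without type I replicate 2 (0.051). No tip cell gene passed in either comparison with type II ECs. The medians were -1.12 for type II against type I and -0.79 for type III against type II ECs, beside -0.06 and 0.14 over all tested genes.

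**Figure D4:**
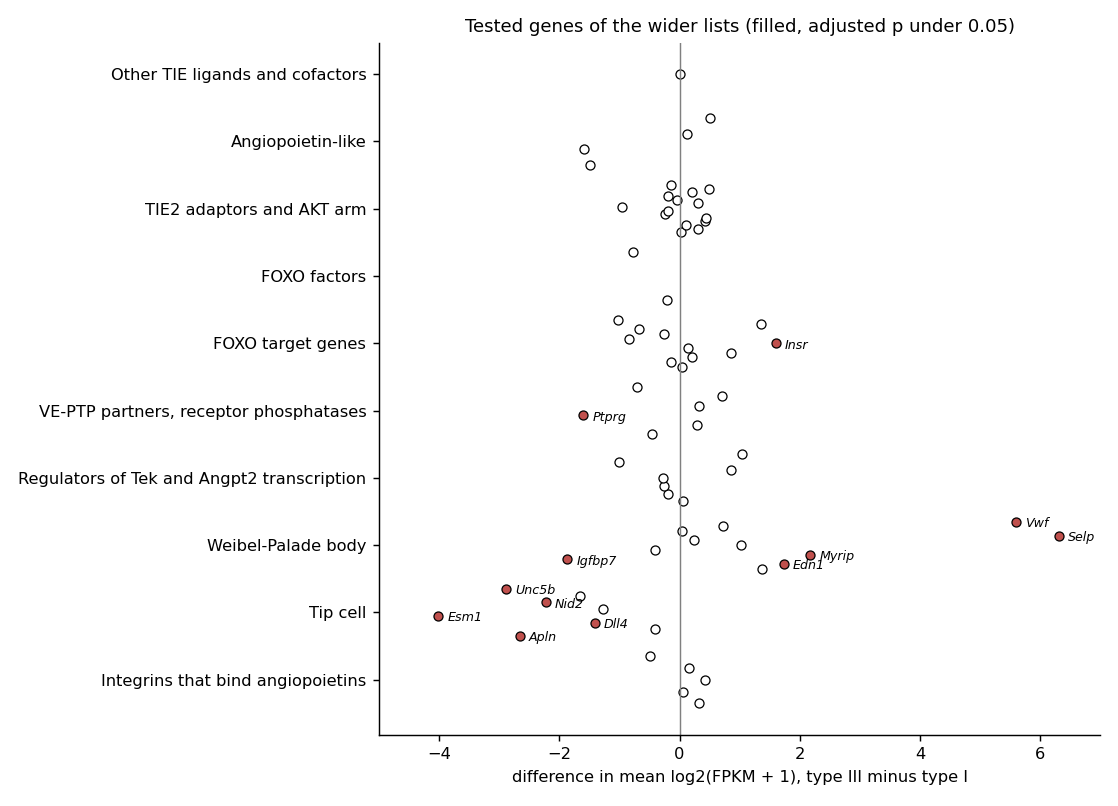
Differences in mean log2(FPKM + 1) between type III and type I ECs for the tested genes of 10 wider lists, 1 row per list (filled and named, adjusted p under 0.05; open, not past it; points are spread vertically for legibility). The 5 filled tip cell genes lie between -4.01 and -1.41, and 4 of the 5 filled Weibel-Palade body genes lie between 1.74 and 6.31. The value of 6.31 is that of Selp, whose protein was used in the sort.

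Among the 9 endothelial markers, 2 passed between type III and type I ECs, beside 4.14% of all tested genes. Cldn5, a tight junction protein whose gene FOXO1 is known to repress, had an FPKM of 410 and 364 in type I, 154 and 101 in type II and 35.4 and 23.4 in type III ECs. It fell by 3.70 (SE 0.29, limma adjusted p = 0.000252), and it also passed between type III and type II ECs (-2.07, adjusted p = 0.041), a call lost without any 1 of the 6 libraries (adjusted p 0.053 to 0.279). Eng, the co-receptor endoglin, rose from 298 and 305 to 564 and 748 (log2 difference 1.10, adjusted p = 0.0404), a call that 11 of 14 alternative settings lost, among them each of those without a library (adjusted p 0.089 to 0.242). Pecam1, which encodes CD31, was at 496 to 867 in the 6 libraries and did not pass.

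Markers of other cells were low beside these. The 8 markers of thymocytes and other leukocytes summed to 20.9 to 72.6 in type I, 36.9 to 47.5 in type II and 60.0 to 124 in type III ECs, the 6 of thymic epithelium to 18.0 to 46.5, 17.7 to 23.3 and 12.3 to 46.0, and the 4 of megakaryocytes and platelets, which carry Angpt1 and P-selectin protein, to 0.657 to 1.55, 2.48 to 4.97 and 1.38 to 3.47. None of these genes passed in any comparison. The 4 markers of lymphatic endothelium, a known source of Angpt2, summed to 18.7 to 23.9 in type I, 9.85 to 12.4 in type II and 13.3 to 30.1 in type III ECs, and none passed. Flt4 was the largest term in 5 of the 6 libraries, and Lyve1 in type III replicate 1. Chosen after their values were seen, Prox1 was at 3.05 and 3.22 in type III ECs against 0.519 at most in type I ECs (adjusted p = 0.0577), and Lyve1 at 12.4 and 1.07 against 0 in both. Flt4 went the other way without overlap, from 20.0 and 16.7 in type I to 9.45 and 7.15 in type III ECs (log2 difference -1.06, limma adjusted p = 0.0799). Pdpn overlapped between these subsets (0.36, adjusted p = 0.86). The 2 type III libraries differed in Lyve1 and were alike in Prox1 and in Angpt2, the latter at 35.9 and 32.6. The study found the sorted cells podoplanin-negative and held lymphatic ECs and fibroblasts to be unlikely among them. The part of lymphatic cells in the level of Angpt2 was not tested.

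**Figure D5:**
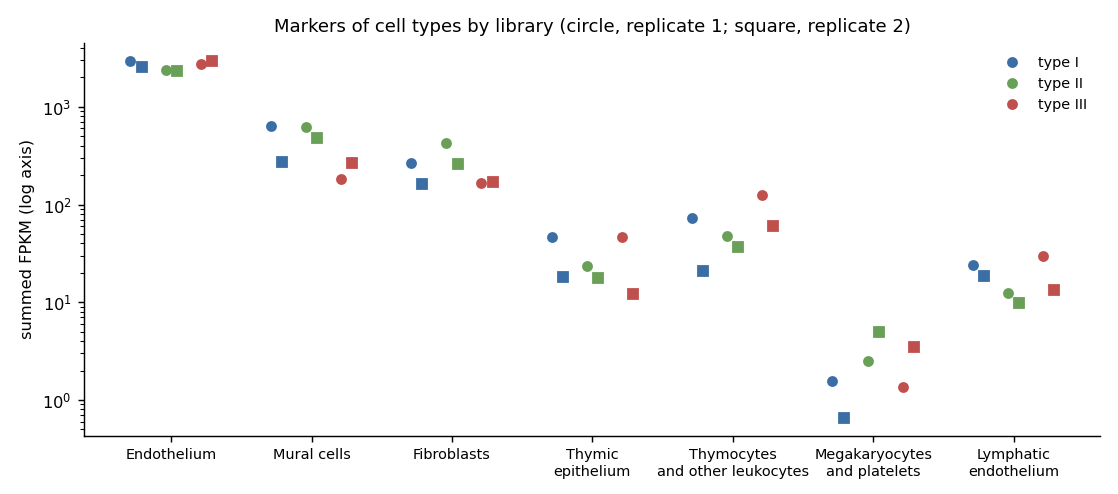
Summed FPKM (log axis) of marker genes of 7 cell types in each library of type I, type II and type III ECs (circles, replicate 1; squares, replicate 2). Endothelial markers sum to at least 2342 in every library, mural markers to 184 to 264 in type III and 271 to 630 in type I ECs.

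Each member had its own set of closest genes. Likeness was the Pearson correlation of log2(FPKM + 1) over the 6 libraries, among genes whose mean reached an FPKM of 10 in some subset. With 6 libraries that share 3 subsets and differ in depth, high values are common, and they are given as a description. For Angpt2, 319 of 4867 genes reached r = 0.9, the most of any member. The closest were Dram1, Pam, Rps3, Bmp4 and Rfk. Pam, an enzyme that amidates peptides, had a mean FPKM of 24.2, 50.1 and 100 in type I, II and III ECs, and Bmp4, a growth factor, 5.07, 15.6 and 41.0.

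The receptors had fewer genes of like pattern, 85 for Tek and 30 for Tie1. Those nearest Tek were Pkd2, Il34, Gjc1, Gbp3 and Tnfrsf21, and those nearest Tie1 were Klf2, Zc3h18, Nos3, Ephb4 and Papln, with r from 0.97 to 0.99. Klf2 and Nos3, which encodes the endothelial nitric oxide synthase, were both lowest in type II ECs, as Tie1 was, with means of 187, 132 and 161 for Klf2 and 38.6, 30.1 and 37.5 for Nos3. For Ptprb close genes were Vim, Ldlrad4, Sbno2 and Creb3l2 (63 genes at r = 0.9 or more), and for Foxo1 they were Cpne2, Klhl3, Hid1, Stab1 and Cdr2l (187 genes). Angpt1, at the edge of detection, had 15, the closest being Dtd1, Fmo2, Snf8, Ppp1r12a and Serping1.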

How the data were processed

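RNA of sorted thymic ECs was sequenced in 2 libraries of each of 3 subsets. The deposited values are FPKM, which the authors computed for each library on its own, without pooling replicates, together with the bounds of a 95% confidence interval. The submitters' processing notes name CASAVA 1.8, TopHat2 2.0.10, Cufflinks 2.1.1, Cuffdiff and the build mm9; the gene annotation is not given in the sources used here. Each table also holds 95 rows for spike-in and reporter sequences, which were left out, and no mitochondrial genes.

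Deposited values were taken as log2(FPKM + 1) with no rescaling, a scale that understates differences of low genes. Testing covered 11717 genes that reached 1 FPKM in 2 or more libraries and used limma 3.58.1 (R 4.3.3; lmFit, eBayes with a trend), with all 6 libraries in 1 fit and a mean per subset. Benjamini-Hochberg adjustment ran over all tested genes, and genes under an adjusted p of 0.05 were called. Cuffdiff, which the study used, needs aligned reads and was not run. Fragments were estimated from the width of the intervals, taken as counting error, and summed to between 1452480 and 2423170 a library, so intervals and limits cover counting error only. Log2 ratios of FPKM + 1 were tested by a two-sided exact permutation test (scipy 1.17.1).

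The genes followed and the lists were chosen with earlier results of these data known. Named were all members, the sort genes, and from each list the genes past the threshold (up to 6 by size) and the 2 with the highest mean, plus the 5 genes closest to each member, of which 1 is not reported here. The lists were other TIE ligands, angiopoietin-like genes, TIE2 adaptors and AKT arm, FOXO factors, FOXO target genes, receptor phosphatases, transcription regulators, Weibel-Palade body, tip cell, integrins and markers of 7 cell types. On simulated data for type III against type I ECs with 11717 genes, limma recovered 51 of 100 genes changed by 2 on the log2 scale and 3 of 100 changed by 1, with 0 false calls. The simulated spread was capped, low genes were left unchanged and the libraries were drawn independently. These rates may therefore differ from those in the real data. Alternatives were a pseudocount of 0.1, no filter or a minimum FPKM of 5, quantile normalization, median ratio scaling, no trend, only the subsets compared, the replicate number as a block, and each library left out.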

Additional observations from a re-analysis of the deposited data

Results flagged for a closer look

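The tables also list reporter sequences that are no mouse genes, and these entered no comparison. A row named RGC-mRFP had a lower 95% bound above 0 in 5 of the 6 libraries from wildtype mice. Its FPKM was 18.2 and 1.83 in replicates 1 and 2 of type I ECs, 23.7 and 5.31 in those of type II and 28.3 and 3.23 in those of type III ECs. Every replicate 1 library was above every replicate 2 library. A row named RGC-GFP had a lower bound above 0 in 1 library, type III replicate 2, at 2.37. What these rows stand for is not given in the sources used here.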

How the results depend on the processing

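The call of Angpt2 between type III and type I ECs held in 10 of 14 alternative settings, with log2 differences of 1.33 to 1.75 over the 14 and adjusted p-values of 0.00214 to 0.106. With no filter on low values the number of members called was 0 in place of 1 (Angpt2 at an adjusted p of 0.094, Insr at 0.092, Ptprg at 0.077, Edn1 at 0.081), and with a library left out it lay between 0 and 1. It was 0 without type I replicate 2, type III replicate 1 or type III replicate 2. No filter also ended, among others, the calls of Igfbp7 (adjusted p 1.00), Esm1 (0.260), Unc5b (0.175) and Cldn5 (0.062), and those of Vwf (0.214) and Selp (0.084) between type II and type I ECs. Leaving out a library leaves a subset with 1 sample, which is then assumed to vary like the others. The remaining 5 members passed in no comparison under any alternative run. Their signs turned in 6 cases, all far from the threshold. Tie1 went to 0.13 (type III against type I, without type III replicate 1; range without a library -0.40 to 0.13) and to -0.0040 (type III against type II, without type III replicate 2; -0.0040 to 0.52), Angpt1 to -0.12 (type III against type I, without type I replicate 2; -0.12 to 0.69), Tek to -0.20 and -0.19 (type II against type I, without type I replicate 2 and without type II replicate 1; -0.20 to 0.24) and Ptprb to -0.035 (type III against type II, quantile normalization). Tie1 per Tek ranged from -0.12 to 0.64 with a library left out, against 0.26, and Angpt2 per Tek from 1.89 to 1.98. The cause of these changes was not tested.

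Counts over all genes depended more on the settings. In place of 485, 46 and 26 genes (type III against type I, type II against type I, type III against type II), no filter gave 102, 10 and 2, where 24457 genes share the adjustment. Quantile normalization gave 694, 103 and 90 (22 higher and 68 lower in the last, against 11 and 15), and median ratio scaling 698, 97 and 85 (23 and 62). Both removed the median difference of 0.14 between type III and type II ECs. Without a trend the counts were 410, 15 and 10, and with only the subsets compared 405, 29 and 7. With a library left out they ranged from 209 to 404, from 12 to 33 and from 2 to 14. Without type I replicate 2, type III replicate 1 and type III replicate 2 the first was 249, 209 and 219.

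With the replicate block the counts were 971, 183 and 229, and the members called stayed at 1, 0 and 0. The deviations of same-numbered libraries from their subset means correlated at 0.20 (type I and II), 0.31 (type I and III) and 0.18 (type II and III) across genes. The labels do not say what a number marks. Tek, the leukocyte and thymic epithelial marker sums and a reporter row were higher in replicate 1 of each subset, so the numbers may mark something shared, which was not tested. Within replicate 1 and replicate 2 Angpt2 was 1.40 and 1.68 higher in type III than in type I ECs. Depth limits Angpt1, whose values rest on 2 to 20 fragments, and in the simulation differences of 1 on the log2 scale were mostly missed.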
